A study of Mus musculus with 24 samples.

Results

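Sequencing of total or captured RNA always brings along ribosomal RNA (rRNA), and its reads can be counted under gene names that carry no ribosomal label. Here 5 count rows, of 53900 in the tables, were taken as candidates for such reads: Gm26917, Lars2, Gm15564, Mir6236 and n-R5-8s1. Of these only n-R5-8s1 is named for an rRNA. The description covers 12 libraries of mouse embryonic stem cells. The 5 rows were chosen by their large shares of the counts or by rRNA-like sequence, so the shares below are a description and carry no test. Which libraries' shares entered the choice is not stated, and the tests of change are therefore not independent of it. All 5 were among the 10334 features tested in the crosslinking data and the 2081 tested in the hm5C data.

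In the crosslinking and immunoprecipitation (CLIP) experiment, cells of E14, an embryonic stem cell line from strain 129 mice in common use, carried TET2 with an HA and His tag (Tet2HA-His) in clone 65 and in clone 75. Each clone is a single line, was labelled with 500 µM 4-thiouridine for 4 hours, was crosslinked with UVB at 400 mJ/cm2 and gave 2 input and 2 TET2 CLIP libraries by a custom eCLIP protocol. In the RNA immunoprecipitation (RIP) experiment, RNA of untreated cells of strain background B6;129 was captured with an antibody against 5-hydroxymethylcytosine (hm5C), giving 2 input and 2 hm5C RIP libraries with a TruSeq small RNA kit. The medium held inhibitors of GSK3 (CHIR99021, 3 µM) and of MEK (PD0325901, 1 µM). A library from untagged cells or from an antibody of no target was not analysed here, so each capture is read against its input only. CLIP asks which RNAs lie in contact with TET2, an enzyme that oxidises 5-methylcytosine, and RIP asks which RNAs carry the oxidised base.

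Most rRNA arises in the nucleolus, where RNA polymerase I copies tandem repeats into one long precursor. Small nucleolar RNAs and assembly factors guide its modification and cutting into the rRNAs of the small subunit (18S) and the large subunit (28S and 5.8S), whereas 5S rRNA is made elsewhere by RNA polymerase III and mitochondria make their own pair. Copies and fragments of rRNA genes lie scattered through mammalian genomes, and a gene that overlaps one can receive reads of rRNA.

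By name, n-R5-8s1 is a gene of 5.8S rRNA, the small partner of 28S. Gm26917 is a predicted gene without a protein that is commonly set aside as rRNA-derived in mouse data. Lars2 encodes the mitochondrial leucyl-tRNA synthetase, which loads leucine onto mitochondrial tRNA, and lies at chr9:123366927-123462675 in RefSeq (GRCm38.p6, the assembly of mm10). Gm15564 is a long noncoding RNA gene at chr16:35966751-35983329. Mir6236 is a microRNA gene of 123 bases at chr9:110281287-110281409, within the long noncoding RNA gene Gm39429 (chr9:110266638-110282670). RefSeq's gene table matched 3 of the 5 rows, and Gm26917 and n-R5-8s1 were used by the name in the tables alone. No genome sequence was used, so that rRNA-like sequence in Gm26917, Lars2 and Gm15564 was not checked.

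The only member with a mature sequence in the reference tables is the miRNA, shown because it is what the row is named for, with the seed (bases 2 to 8) in capitals, 5′ to 3′, from RefSeq (GRCm38.p6, chr9:110281353-110281371, plus strand).
mmu-miR-6236: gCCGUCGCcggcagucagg
It has 19 bases, of which 15 (78.9%) are G or C, against a median of 52.2% over 1738 mature mouse miRNAs in RefSeq. Only 20 of these, itself included, reached that content, and 0 others shared its seed. Its whole sequence was found in 0 of 27025 RefSeq promoter windows, which says nothing of the rest of the genome.

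Total counts were 913002 to 4729463 in CLIP inputs and 221060 to 453944 in TET2 CLIP libraries, which makes the scarcest rows thin there: Gm15564 had 25 to 55 counts and n-R5-8s1 18 to 47 in a TET2 CLIP library. Depth in RIP was 4641963 to 4889943 counts for inputs and 1564014 to 2100187 for the captured libraries. The hm5C RIP libraries stand apart because 1 gene, Acsl6, took 57.9% ± 3.84 (SD, n = 2) of their counts. All 10 stem cell markers (Pou5f1, Sox2, Nanog and others) were detected in every group except hm5C RIP, where Zfp42 was at 0. Their summed level was 1632 to 2782 CPM (counts scaled to a common library size) in CLIP and 16.6 to 42.1 in RIP. All marker sums in this paragraph were scaled by raw library totals, without TMM factors. The CPM of rows in later paragraphs include TMM factors. Summed trophoblast markers were 386 to 452 in inputs of clone 75, 214 to 269 in inputs of clone 65 and 45.2 to 106 in TET2 CLIP. Cdx2 was at 0 in TET2 CLIP of both clones. Summed fibroblast markers were 35.8 to 44.8 in hm5C RIP, with Postn and Thy1 at 0, and 3.07 to 3.23 in RIP inputs. The part of these markers in the results below was not tested.

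Gm26917 alone held 17.6% to 34.4% of each CLIP library and was the most counted of all rows in each of the 8. Its share in replicates 1 and 2 was 24.4% and 21.1% in inputs of clone 65 and 18.9% and 17.6% in TET2 CLIP of that clone. In clone 75 its share was 34.4% and 30.5% in inputs and 19.4% and 20.2% in TET2 CLIP. All 4 TET2 CLIP libraries thus lay below all 4 inputs, and the inputs of clone 75 lay above those of clone 65. In CPM, TET2 CLIP and inputs overlapped: TET2 CLIP replicate 1 of clone 65 had 219336, against 212759 and 173026 in inputs of that clone. How many of all features separate by share was not counted, here or for the rows below. In RIP it had rank 4 in every library, with 10.9% and 9.47% of the inputs and 3.90% and 3.43% of the hm5C libraries.

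Lars2 was the third most counted row of every CLIP input, with shares of 1.27% and 1.32% in clone 65 and 2.02% and 1.71% in clone 75. In TET2 CLIP it held 0.296% and 0.270% in clone 65 and 0.353% and 0.317% in clone 75, well below every input, at ranks between 16 and 31. In RIP it held 0.0297% and 0.0618% of the inputs and 0.0635% and 0.0792% of the hm5C libraries, an order in which the second input nearly met the first hm5C library. Among genes of its class it stood far apart: in inputs of clone 75 Lars2 took 94.0% and 92.5% of all counts on 37 tRNA synthetase rows, and in those of clone 65 86.7% and 86.4%. The next synthetase in the first input of clone 65, Cars, had 493 counts against 37588 on Lars2. In TET2 CLIP its part of the synthetase counts was lower, 68.1% to 73.3%, and in RIP inputs it was 50.2% and 65.4%.

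Gm15564 had the pattern of Lars2 at a far smaller share. In CLIP inputs it held 0.0580% and 0.0607% in clone 65 and 0.0931% and 0.0855% in clone 75. In TET2 CLIP it held 0.0154% and 0.0112% in clone 65 and 0.0121% and 0.0102% in clone 75, with no overlap with any input. In RIP the order turned: the share was 0.00166% and 0.00417% in inputs and 0.00818% and 0.00900% in the hm5C libraries, which lay above both inputs.

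The 5.8S row n-R5-8s1 held 0.0775% and 0.0686% of the CLIP inputs of clone 65 and 0.0693% and 0.0714% of those of clone 75. TET2 CLIP left 0.00814% and 0.0157% in clone 65 and 0.0104% and 0.00745% in clone 75, again below every input. RIP libraries, made with a small RNA kit, held 0.0764% and 0.0968% in inputs and 0.0966% and 0.137% after hm5C capture. The second input and the first hm5C library were at nearly the same share.

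Mir6236 went the other way in CLIP. Its share was 0.341% and 0.321% in inputs of clone 65 and 0.327% and 0.304% in those of clone 75. In TET2 CLIP it reached 1.61% and 0.880% in clone 65, ranks 3 and 7 of those libraries, and 0.350% and 0.604% in clone 75. All 4 TET2 CLIP libraries lay above all inputs, the lowest of them by little, and the replicates of TET2 CLIP were farther apart than those of the input. In CPM the lowest, TET2 CLIP replicate 1 of clone 75, had 3391, below the 3733 of input replicate 1 of that clone. In RIP the share was 0.0177% and 0.0369% in inputs and 0.0588% and 0.0586% in hm5C libraries. Among 1180 microRNA gene rows it took 83.8% to 93.9% of the counts in each CLIP library, where the next row had at most 587 counts. In RIP inputs, made with the small RNA kit, it was 0.368% and 0.657% of the microRNA counts, and Mir182 led with 67104 and 93129.

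**Figure D1:**
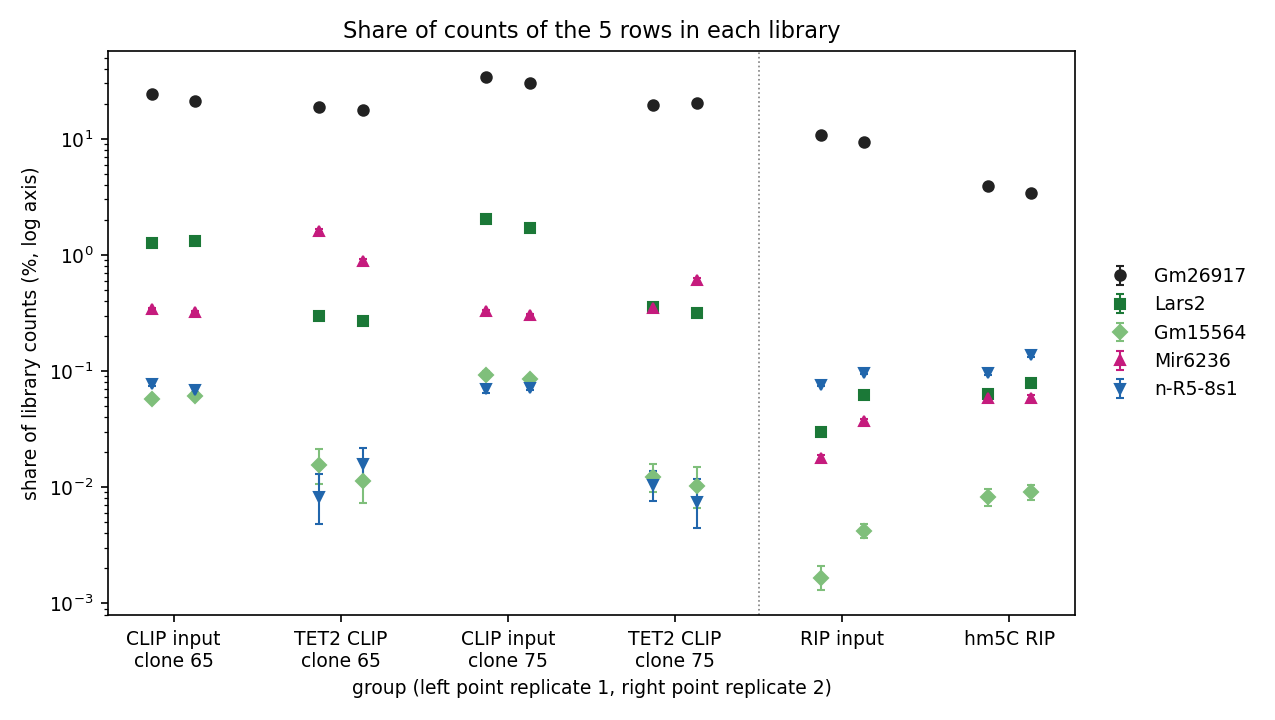
Share of library counts (percent, log axis) of the 5 rows in each of the 12 libraries, by group; left and right points are replicates 1 and 2, and bars are exact (Clopper-Pearson) 95% binomial intervals, which cover counting error only. Gm26917 lies above the other 4 rows in every library, Lars2, Gm15564 and n-R5-8s1 fall from input to TET2 CLIP, and Mir6236 lies higher in TET2 CLIP than in inputs.

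With both clones weighted equally, 3 of the 5 rows fell and 1 rose in TET2 CLIP. Over all features tested, 5.83% were called lower and 8.99% higher (14.8% in either direction; edgeR's quasi-likelihood test, Benjamini-Hochberg adjusted p under 0.05), with a median log2 change of -0.026. Scaling by library size alone turned that split from 929 higher and 602 lower to 804 higher and 966 lower and moved the median to -0.16, and the rows keep the directions given here under it. The 5.8S row n-R5-8s1 fell by 2.65 on the log2 scale (SE 0.163, edgeR adjusted p = 3.65e-14). Gm15564 fell by 2.45 (SE 0.152, adjusted p = 4.86e-14) and Lars2 by 2.22 (SE 0.142, adjusted p = 1e-13), a 4.65-fold lower level. Mir6236 rose by 1.38 (SE 0.183, adjusted p = 2.82e-06).

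Gm26917, the row with the most counts, had a log2 change of -0.40 over both clones (SE 0.143, edgeR adjusted p = 0.0577), just short of the threshold. That call depends on the scaling and the tool. It passed with library size alone (-0.52, adjusted p = 0.00126), with no count filter (-0.75), with the 5 rows kept out of the library sizes and scaling (-0.46, adjusted p = 0.0227), with the replicate block (-0.39, adjusted p = 0.0268) and by DESeq2's Wald test (-0.40, adjusted p = 0.0102). Leaving out TET2 CLIP replicate 1 of clone 65 (-0.51) or input replicate 2 of clone 75 (-0.53) also brought it past. It missed with DESeq2 size factors (-0.40, edgeR adjusted p = 0.052). It also missed without either input replicate or TET2 CLIP replicate 2 of clone 65, or without replicate 1 of input or TET2 CLIP of clone 75 (-0.47 to -0.32).

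Within each clone, Lars2, Gm15564 and n-R5-8s1 fell. Mir6236 rose in clone 65 and Gm26917 fell in clone 75. In clone 65 the log2 changes were -1.78 for Lars2, -1.75 for Gm15564 and -2.21 for n-R5-8s1, against 11.1% of all features called there, 2.85% lower and 8.22% higher. In clone 75, where 10.1% were called, 3.94% lower and 6.18% higher, they were -2.66, -3.14 and -3.10. Library size alone gave 685 higher and 1344 lower in place of 849 and 295 in clone 65, with the median moving from -0.036 to -0.45. In clone 75 it gave 834 and 271 in place of 639 and 407, with the median moving from 0.050 to 0.20. With TMM scaling, the largest edgeR adjusted p of the 6 falls in Lars2, Gm15564 and n-R5-8s1 was 4.67e-07. Mir6236 rose by 2.34 in clone 65 (SE 0.265, adjusted p = 2.82e-07), and by 1.71 without TET2 CLIP replicate 1, the library with its highest share. In clone 75 its change was 0.42 (SE 0.255, adjusted p = 0.356), and -0.017 without TET2 CLIP replicate 2. Gm26917 had a log2 change of 0.091 in clone 65 (SE 0.201, adjusted p = 0.842) and fell by 0.89 in clone 75 (SE 0.203, adjusted p = 0.00303). The fall in clone 75 did not pass without TET2 CLIP replicate 1 (-0.86, adjusted p = 0.173) or replicate 2 (-0.91, adjusted p = 0.100) of that clone, with nearly the same size. The small value in clone 65 was -0.32 with library size alone and -0.38 with no count filter.

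**Figure D2:**
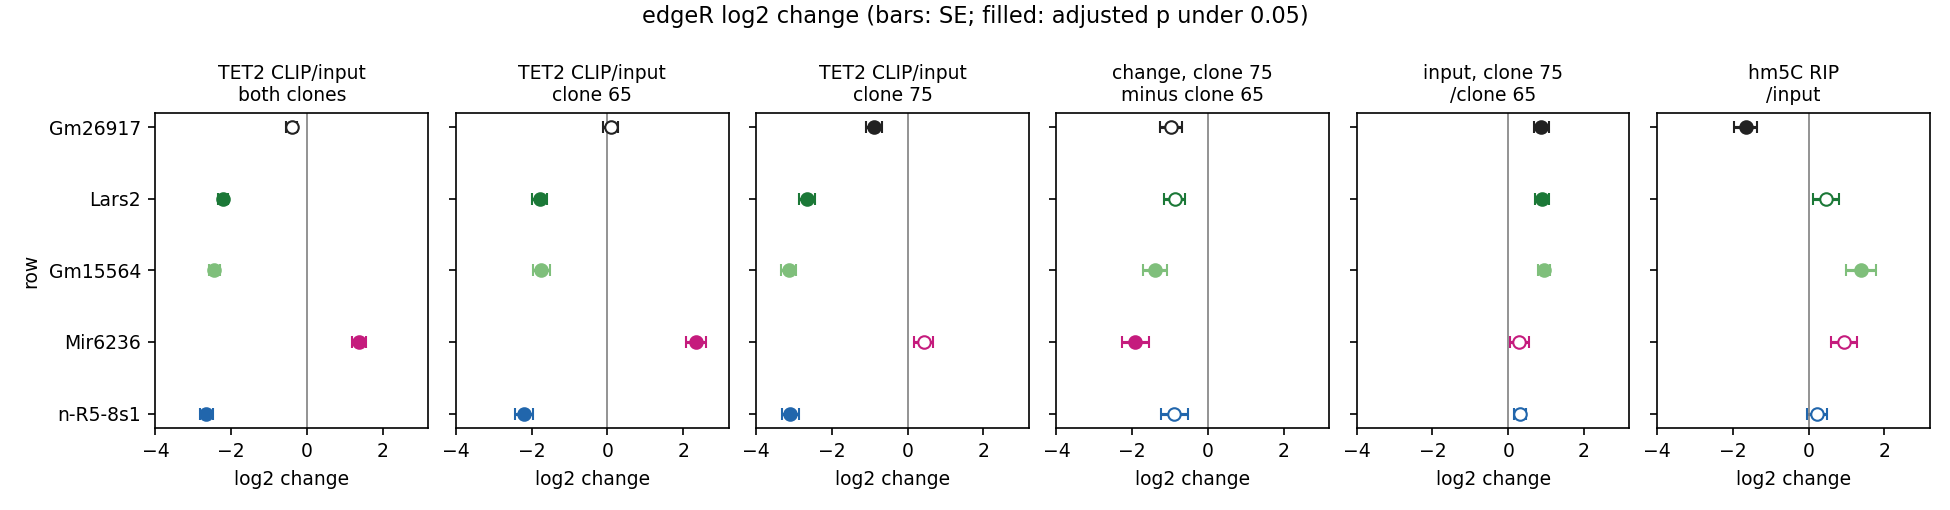
Log2 change of the 5 rows in each comparison, from edgeR; bars are standard errors and filled points passed an adjusted p of 0.05. Lars2, Gm15564 and n-R5-8s1 lie to the left of 0 in both clones, Mir6236 lies at 2.34 in clone 65 and 0.42 in clone 75, and in hm5C RIP Gm26917 lies to the left and Gm15564 to the right.

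The difference between clones was tested in the same fit. All 5 rows had a lower value in clone 75 than in clone 65, and the difference passed for Mir6236 (-1.92, SE 0.362, edgeR adjusted p = 0.00297) and Gm15564 (-1.40, SE 0.329, adjusted p = 0.0161). Among all features 2.54% were called, 2.22% lower and 0.329% higher. For Gm26917 the difference was -0.98 (SE 0.285, adjusted p = 0.0619), for Lars2 -0.88 (SE 0.272, adjusted p = 0.0844) and for n-R5-8s1 -0.89 (SE 0.357, adjusted p = 0.218). With DESeq2 size factors those of Gm26917 (adjusted p = 0.0334) and Lars2 (adjusted p = 0.0492) passed. Both differences also passed by DESeq2's Wald test, at -1.05 (adjusted p = 0.00092) and -0.94 (adjusted p = 0.00379). That of Gm26917 also passed with the replicate block (-0.98, adjusted p = 0.0203) and without input replicate 2 of clone 75 (-1.11, adjusted p = 0.0429), and that of Lars2 without TET2 CLIP replicate 2 of clone 65 (-0.97, adjusted p = 0.0361). Library size alone turned the split over all features from 34 higher and 229 lower to 567 higher and 102 lower and moved their median difference from 0.022 to 0.58. Under it the differences shrank to -0.39 for Gm26917 (adjusted p = 0.3), -0.29 for Lars2 (adjusted p = 0.517) and -0.32 for n-R5-8s1 (adjusted p = 0.61). Mir6236 kept its call (-1.32, adjusted p = 0.0197) and Gm15564 lost it (-0.81, adjusted p = 0.122). The call on Gm15564 was also lost without TET2 CLIP replicate 1 of clone 65 (-1.08, adjusted p = 0.132), without either input replicate of clone 65 (adjusted p = 0.0853 and 0.0973) and without input replicate 1 of clone 75 (adjusted p = 0.0798).

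The inputs, against which these changes are measured, differed between the clones as well. Between the inputs of clone 75 and clone 65, Gm26917 was higher by 0.88 (SE 0.203, edgeR adjusted p = 0.00481), Lars2 by 0.90 (SE 0.191, adjusted p = 0.00214) and Gm15564 by 0.95 (SE 0.153, adjusted p = 7.68e-05) in clone 75. In this comparison 5.07% of all features were called higher and 1.9% lower (6.97% in all), and with library size alone the counts were 248 higher and 1485 lower in place of 524 and 196, the median moving from 0.014 to -0.33. Mir6236 (0.29, SE 0.253, adjusted p = 0.651) and n-R5-8s1 (0.30, SE 0.158, adjusted p = 0.333) did not pass, and with library size alone stood at -0.071 and -0.052. Without input replicate 2 of clone 65 the calls on Gm26917 (0.74, adjusted p = 0.255), Gm15564 (0.94, adjusted p = 0.0641) and Lars2 (0.88, adjusted p = 0.148) were lost. That on Lars2 was also lost without input replicate 1 of clone 65 (adjusted p = 0.124) or of clone 75 (adjusted p = 0.0915). For Gm26917 the share spanned 17.6% to 20.2% over the 4 TET2 CLIP libraries and 21.1% to 34.4% over the inputs, whereas for Mir6236 it spanned 0.350% to 1.61% over TET2 CLIP and 0.304% to 0.341% over the inputs.

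In hm5C RIP, Gm26917 fell by 1.66 on the log2 scale (SE 0.309, edgeR adjusted p = 0.00277) and Gm15564 rose by 1.38 (SE 0.392, adjusted p = 0.0188). These calls are to be read against a comparison in which 51.9% of the features tested passed, 33% higher and 18.9% lower. Mir6236 had a change of 0.93 (SE 0.351, adjusted p = 0.055), Lars2 of 0.46 (SE 0.344, adjusted p = 0.31) and n-R5-8s1 of 0.23 (SE 0.266, adjusted p = 0.521). Mir6236 passed with library size alone (1.10, adjusted p = 0.014), DESeq2's Wald test (0.95, adjusted p = 0.0188), the replicate block (1.00, adjusted p = 0.0196) and without RIP input replicate 2 or either hm5C replicate. Mir6236 also passed with DESeq2 size factors (0.95, edgeR adjusted p = 0.0472) and with the 5 rows out of the scaling (0.81, adjusted p = 0.0348). With no count filter it did not (0.27, adjusted p = 0.716), and without RIP input replicate 1 its change was 0.40. The RIP inputs were unlike each other for these rows. Lars2 had 1378 and 3024 counts at similar totals, and Gm15564 77 and 204. Without RIP input replicate 1 Gm15564 no longer passed (0.78, adjusted p = 0.166) and Lars2 stood at -0.059.

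The scale of RIP rests on how Acsl6 is treated. With Acsl6 out of the library sizes and no other scaling, the median change of all features moved from 0.15 to 1.61, and 1206 were called higher and 88 lower in place of 686 and 394. On that scale Lars2 stood at 1.90, n-R5-8s1 at 1.70 and Mir6236 at 2.36, all called, and Gm26917 at -0.23 (adjusted p = 0.218), not called. Counted over the library without Acsl6 and the 5 rows, Gm26917 amounted to 12.2% and 10.5% of the inputs and 9.57% and 9.61% of the hm5C libraries. Gm26917 was thus lower than the bulk of features on both scales, and whether its level itself fell depends on the scale.

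Ratios within a library do not depend on depth or scaling. Per 1000 counts of Gm26917, Lars2 had 52.0 and 62.7 counts in inputs of clone 65 and 58.8 and 56.2 in those of clone 75, but 15.4 to 18.2 in TET2 CLIP. Mir6236 had 9.51 to 15.2 in the 4 inputs, 85.2 and 50.1 in TET2 CLIP of clone 65 and 18.1 and 29.9 in that of clone 75. The 5.8S row had 2.02 to 3.26 in CLIP inputs, 0.369 to 0.892 in TET2 CLIP, 7.03 and 10.2 in RIP inputs and 24.8 and 40.0 after hm5C capture. Each of these 3 ratios left its input range in TET2 CLIP, and how many other features do so was not counted. That of Lars2 overlapped between inputs of the clones, whereas those of Mir6236 (14.0 and 15.2 in clone 65, 9.51 and 9.94 in clone 75) and of the 5.8S row (3.17 and 3.26, then 2.02 and 2.34) were lower in both inputs of clone 75. The 5 rows therefore did not move as a unit.

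Lars2 and Gm15564 did stay together within CLIP inputs: the former had 20.1 to 21.9 counts per count of the latter in all 4. The range was 19.3 to 31.0 in TET2 CLIP, where Gm15564 had few counts, 14.8 and 17.9 in RIP inputs and 7.76 and 8.80 in hm5C RIP. Mir6236 and the 5.8S row parted most. Their ratio was 4.25 to 4.71 in CLIP inputs and 33.8 to 198 in TET2 CLIP, where the 5.8S row also had few counts. The value of 198, in replicate 1 of clone 65, rests on 18 counts of the 5.8S row, and replicate 2 gave 56.1.

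**Figure D3:**
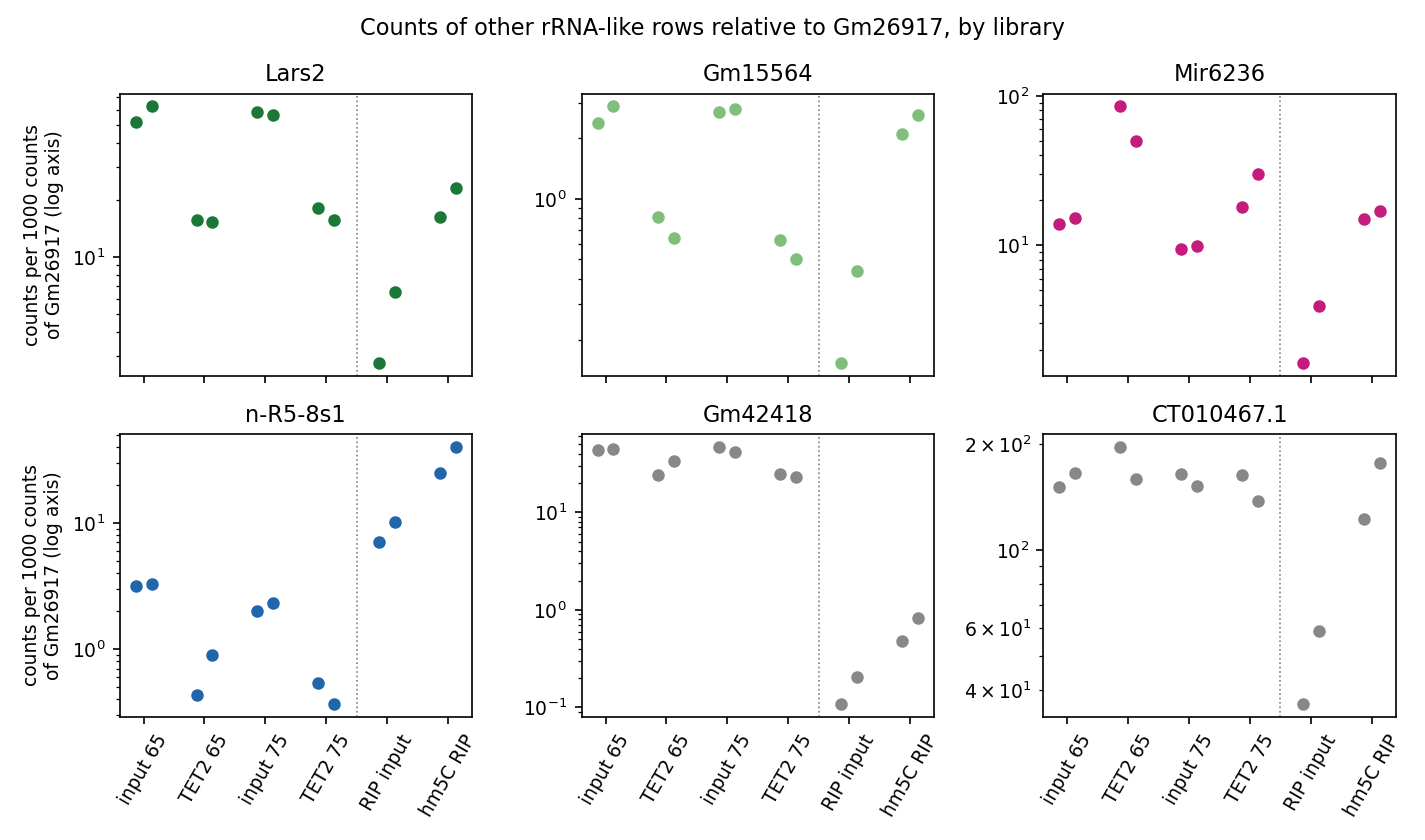
Counts per 1000 counts of Gm26917 (log axis) for the other 4 rows and for Gm42418 and CT010467.1, 1 point per library, by group. Lars2 drops from 52.0 to 62.7 in CLIP inputs to 15.4 to 18.2 in TET2 CLIP, Mir6236 rises from 9.51 to 15.2 in inputs to 18.1 and above, and CT010467.1 holds between 138 and 197 in all CLIP libraries.

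Other rows with large shares of the CLIP inputs were set beside them. CT010467.1 had no match in RefSeq's gene table, and rRNA-like sequence in it was not checked. CT010467.1, the second most counted row of all CLIP groups, kept 138 to 197 counts per 1000 of Gm26917 in all 8 CLIP libraries. Gm42418, listed in RefSeq under the 18S name Rn18s-rs5 as a pseudogene at chr17:39846354-39848202, had 41.6 to 46.8 in inputs and 22.9 to 33.4 in TET2 CLIP. Over both clones Gm42418 fell by 1.17 (SE 0.141, edgeR adjusted p = 1.3e-07), and CT010467.1 stood at -0.34 (adjusted p = 0.12). Both were lower in clone 75 than in clone 65 in the change itself, by -1.27 (adjusted p = 0.00931) and -1.24 (adjusted p = 0.0165). Both were also higher in inputs of clone 75, by 0.89 each. In hm5C RIP neither passed, at 0.39 and -0.013, and Gm42418 was scarce there.

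By likeness over the 8 CLIP libraries, which span input and capture of both clones, the nearest features to each row were as follows, as Pearson's r of log2 CPM and as a description. Gm26917 was nearest to Pabpc1, the cytoplasmic poly(A)-binding protein (0.944), CT010467.1 (0.943) and Gaa (0.927). Lars2 was nearest to Lama5 (0.998), Gm7616 (0.992) and Gm15564 (0.989). For Gm15564 AA474408 (0.993) and Gata3 (0.992) came before Lars2. Mir6236 was nearest to Sp8 (0.992), Gm4707 (0.989) and Setbp1 (0.988), and n-R5-8s1 to Gm13977 (0.987), Cidec (0.986) and Olfr215 (0.985). Just 1 pair of the 5, Lars2 and Gm15564, were among each other's 3 nearest.

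The rRNA that RNA polymerase III makes moved opposite to the 5.8S row. Of 61 tested 5S rows among 181, 55 rose and 0 fell in TET2 CLIP over both clones, where 8.99% of all features were called higher, with a median log2 change of 2.44 beside -0.026 for all features. The row n-R5s56 had 209 to 297 CPM in the 4 inputs, 2592 and 2688 in TET2 CLIP of clone 65 and 1306 and 1005 in that of clone 75 (2.79, SE 0.127, edgeR adjusted p = 3.27e-17). Near-identical 5S copies share reads, so these rows are not independent of each other. The count filter also admits a row that is well counted in TET2 CLIP alone, which can raise the share that rose. How many rows entered that way was not counted. In hm5C RIP 28 of 41 tested 5S rows rose and 1 fell, where 33% of all features were called higher and 18.9% lower. Their median was 1.79 beside 0.15. There the filter can likewise admit rows through the hm5C libraries alone.

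RNAs that take part in cutting the precursor mostly rose in TET2 CLIP over both clones as well. Of 6 tested among 21 listed, under the same count filter, 5 rose and 1 fell (-1.51), beside 8.99% of all features higher and 5.83% lower. In clone 75 alone 3 rose and 1 fell, beside 6.18% of all features higher and 3.94% lower. The clone difference was called lower for 3 of the 6, beside 2.22% of all features. Rmrp, the RNA of RNase MRP, rose from 418 to 647 CPM in inputs to 14946 and 19290 in TET2 CLIP of clone 65 and 8935 and 11091 in that of clone 75 (log2 change 4.60, SE 0.158, edgeR adjusted p = 5.65e-20). The U3 RNA rows Rnu3b3 and Rnu3a rose by 2.76 and 1.74, and Snord118, which is U8 and serves 5.8S and 28S maturation, by 1.27. In hm5C RIP 4 of 5 tested fell, beside 18.9% of all features, Rmrp by 0.93 and Rnu3b3 by 1.55. Mitochondrial rRNA split: mt-Rnr2, the large rRNA, fell by 0.86 in TET2 CLIP (adjusted p = 0.000258) and by 1.05 in hm5C RIP (adjusted p = 0.0109), and mt-Rnr1 had -0.036 and -0.52, neither called.

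Messenger RNAs of rRNA production are read in CLIP against 8.99% of all features called higher and 5.83% lower. Of 15 tested genes of RNA polymerase I transcription, 1 rose, Taf1d (0.69), and 0 fell. Of 34 genes of small subunit processing 1 rose, Npm1 (0.51), and 2 fell, Heatr1 (-1.20) and Nol6 (-1.15). Of 27 large subunit assembly genes 1 fell, Wdr12 (-0.76). Of 84 cytosolic ribosomal protein genes, 4 rose and 9 fell (median 0.011), in all a share near the 14.8% of all features called. Of 33 tested tRNA synthetase genes 2 fell, Lars2 and Vars (-0.91), and the median of the class, -0.29, lay far from Lars2's -2.22. In hm5C RIP 19 of 37 tested ribosomal protein genes fell, at a median of -1.52, beside 18.9% of all features called lower. There 2 of 6 tested synthetases, Hars and Vars2, were called higher, a share no different from the 33% of all features called higher.

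**Figure D4:**
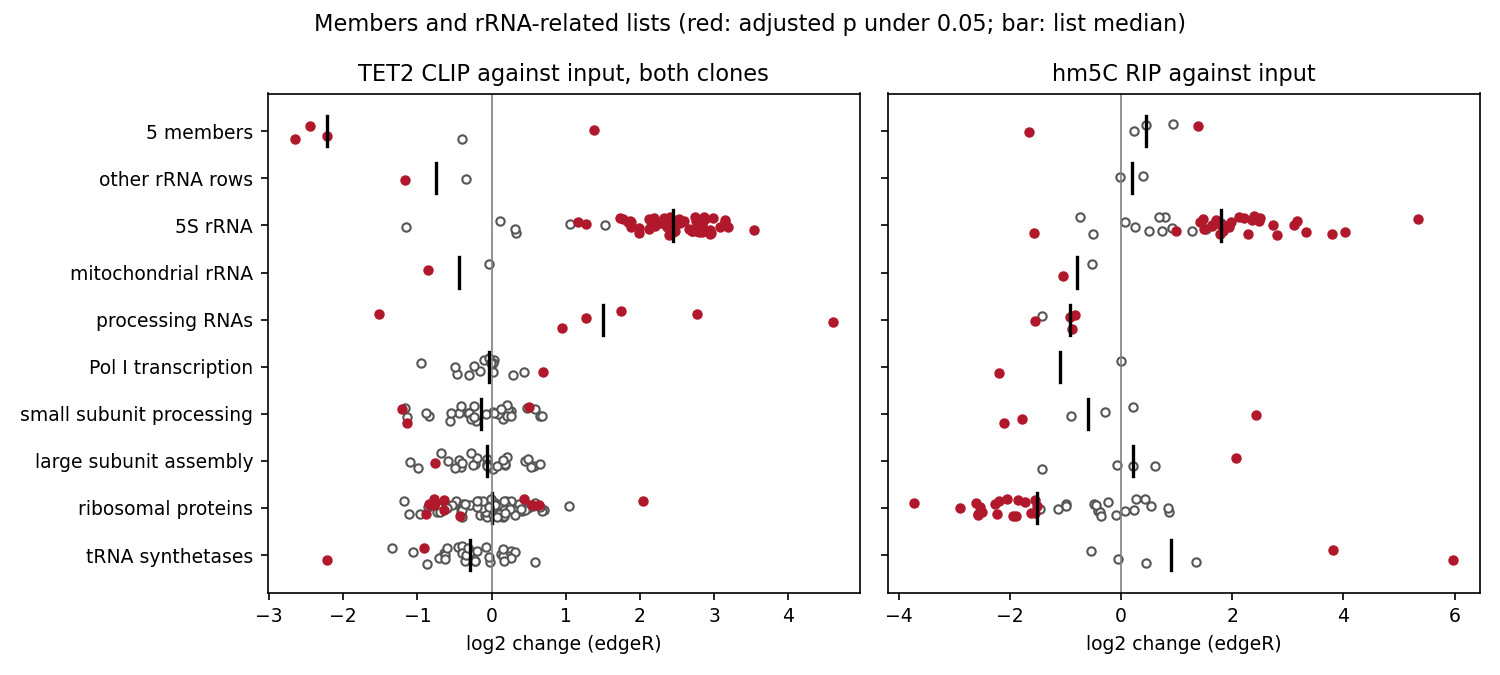
Log2 change (edgeR) of the 5 rows and of each feature of the rRNA-related lists, in TET2 CLIP over both clones and in hm5C RIP; red points passed an adjusted p of 0.05 and bars are list medians. Most 5S rows that passed the count filter lie to the right of 0 in both panels, with medians of 2.44 and 1.79. Their lowest values are -1.15 and -1.56. Messenger RNAs of polymerase I, assembly factors and ribosomal proteins centre near 0 in CLIP.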

How the data were processed

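The deposited values were raw read counts per feature, whole numbers with differing column sums, made by the authors on build mm10 with STAR 2.5.3a, Bowtie2 2.2.6, cutadapt and UMI-tools, per the submitters' processing notes. The role of each tool, the counter and its gene models, whether strand was used and the treatment of reads with several matches, which decides how near-identical rRNA copies share reads, are not given in the sources used here. Replicates were biological per the series' design text, and within a group libraries differed beyond counting noise (chi-square per degree of freedom 1.82 to 26.4). The 12 small RNA libraries were not used here.

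Shares are counts over all 53900 features of a library. The test was the robust quasi-likelihood F-test of edgeR 4.0.16 in R 4.3.3, after filterByExpr and with TMM scaling, Benjamini-Hochberg adjustment over all features tested and a threshold of 0.05. CLIP was 1 fit over 8 libraries and RIP 1 over 4. That filter asks for sufficient counts in any 2 libraries, so some features passed through 1 group only. Likeness used log2 CPM with a prior count of 2, and none is printed for RIP, which has 4 libraries. The tests over both clones and in hm5C RIP were tried on simulated counts with known changes and the same dispersion for all features. The other contrasts were not tried.

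The rows, the lists and the rules were chosen with earlier results of these data known. Named features were the 5 rows, the 3 nearest of each by correlation, the 5 most counted per group and up to 4 per list with the smallest p; Acsl6, Cars and Mir182 are named as leading counts. Not every feature so named is printed. The alternatives were no count filter, scaling by DESeq2 size factors or by library size alone, DESeq2 1.42.0, the replicate block, the 5 rows out of the scaling, Acsl6 out of the RIP library sizes and each library left out. The fit that also leaves out Gm42418 and CT010467.1 was added after the data were seen.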

Additional observations from a re-analysis of the deposited data

Results flagged for a closer look

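For 2 of the rows the TET2 CLIP change differed between clones by a test of the difference itself. Mir6236 had a log2 difference, clone 75 minus clone 65, of -1.92, with shares of 1.61% and 0.880% in TET2 CLIP of clone 65 and 0.350% and 0.604% in that of clone 75. Gm15564 had one of -1.40, with 34 and 25 counts in TET2 CLIP of clone 65 and 55 and 26 in that of clone 75, and its inputs were higher in clone 75. The call on Gm15564 was lost in 4 of 8 fits that left out 1 library, with library size alone (adjusted p = 0.122) and with no count filter (adjusted p = 0.105).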

How the results depend on the processing

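Among alternative values for the changes of the 5 rows, 377 kept direction and side of the threshold, 27 newly passed, 16 no longer passed and 10 turned sign. The turned values were those of Gm26917 in clone 65 (-0.32 with library size alone, -0.38 with no filter, and -0.051 and -0.080 without input replicate 2 or TET2 CLIP replicate 1 of clone 65, within a range of -0.080 to 0.25 over libraries left out), Mir6236 (-0.071) and n-R5-8s1 (-0.052) between inputs with library size alone, Mir6236 in clone 75 without TET2 CLIP replicate 2 (-0.017, range to 0.76), and in RIP Lars2 (-0.19) and n-R5-8s1 (-0.40) with no filter and Lars2 without input replicate 1 (-0.059, range to 0.90). Each of these had missed the threshold. With no filter Gm15564 lost its RIP call (0.72, adjusted p = 0.205) and its clone difference (adjusted p = 0.105). The fits without the 5 rows in the scaling, with or without Gm42418 and CT010467.1, lost no call of theirs.

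Counts of called features moved by over 1.5 times as follows. Library size alone gave 966 lower in both clones, 1344 lower in clone 65, 271 lower in clone 75, 567 higher and 102 lower for the clone difference, and 248 higher and 1485 lower between inputs. No filter gave 1871 lower in both clones, 1126 lower in clone 65, and 59 higher and 141 lower for the clone difference. DESeq2's Wald test gave 189 lower in clone 65, and 264 higher and 64 lower between inputs. Leaving Acsl6 out gave 1206 higher and 88 lower in RIP. With 1 library left out, counts ranged, higher then lower, from 727 to 915 and 378 to 735 in both clones, 660 to 889 and 121 to 352 in clone 65, 289 to 689 and 178 to 585 in clone 75, 0 to 49 and 62 to 279 for the clone difference, 83 to 655 and 7 to 337 between inputs, and 512 to 708 and 274 to 524 in RIP. The causes were not tested.

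With the replicate block, 382 were higher and 264 lower in clone 75 and 13 higher for the clone difference. Deviations of same-numbered libraries correlated at -0.0078, 0.018 and 0.022 (clone 65, clone 75, RIP). Noise that is separate in each library also brings such values near 0, so whether the numbers pair the samples is not settled. The block brought Gm26917 in both clones (adjusted p = 0.0268) and in the clone difference (adjusted p = 0.0203), and Mir6236 in RIP (adjusted p = 0.0196), past the threshold and changed no other call of the 5 rows.

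Depth limits Gm15564 and n-R5-8s1, with 18 to 55 counts in a TET2 CLIP library. With 2 libraries a group, a p that misses the threshold does not show that levels were equal.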
